A study of Mus musculus with 6 samples.

Results

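The ETS genes studied here are 10 transcription factors of the ETS family, Elf1, Elf2, Elf3, Elf4, Elk1, Elk3, Ets1, Ets2, Etv4 and Etv5, in mouse embryonic stem (ES) cells. They were taken by name: a probe set belonged to the group if the platform annotation gave it 1 of these symbols and no other. This gave 12 of 35556 probe sets. Of the 10 genes, 8 had 1 probe set, and Etv5 and Elf4 had 2 each. All 10 were among the 19938 genes tested, and no gene was left out for low signal.

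RNA of 6 cultures was hybridised to Affymetrix Mouse Gene 1.0 ST arrays, 1 array per culture. In 3 cultures both alleles of Scc1, the older name of the cohesin gene Rad21, were flanked by lox sites (Scc1 lox/lox ERT2-Cre), and in 3 control cultures they were wild type (Scc1 wt/wt ERT2-Cre). Every culture carried ERT2-Cre, a recombinase that 4-hydroxytamoxifen (4-OHT) brings into the nucleus. Each had received 4-OHT over 24 h. The sample labels state 80 nM, and the design text gives another unit. The lines were female, of mixed C57BL/129 background, and were derived and grown in 2i with LIF. The 2i medium holds an inhibitor of the kinase MEK, which lies upstream of ERK, an activator of several ETS factors, and both genotypes were grown in it. ERK activity was not measured. The design text calls the 3 cultures of a genotype biological replicates, and how many independent lines they came from is not given in the sources used here. Effects of Rad21 loss and other differences between the lines cannot be told apart, since no culture without 4-OHT is analysed here. In bulk RNA, fewer cells of a kind and less RNA per cell cannot be told apart either.

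ETS factors share a DNA-binding domain that recognises a core of GGAA, and differ in the partners and kinases that control them. The ternary complex factors Elk1 and Elk3 sit on promoters with SRF, Ets1 and Ets2 are switched on by ERK phosphorylation, and Etv4 and Etv5, of the PEA3 group, are transcribed in response to FGF and ERK. Elf3 is best known from epithelia and Ets2 from trophoblast, while Elf1, Elf2 and Elf4 form the ELF group, known from blood cells.

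Values are log2 intensities after RMA, so a difference of 1 is a doubling. Array medians lay between 4.85 and 4.94, and a gene near the median is hard to tell from background. The labels were checked on Rad21, which averaged 10.02 ± 0.03 (SD, n = 3) with wild-type alleles and 6.09 ± 0.04 (n = 3) with floxed ones. The ES cell genes Pou5f1, Dppa5a and Zfp42 were at 12.02, 13.25 and 10.23 in wt/wt cells, and all 12 ES cell markers lay above the array median in both genotypes. On the main axis of spread within the genotypes, wt/wt replicate 2 and lox/lox replicate 3 stood apart from the other arrays (loadings -0.576 and -0.537, the others 0.101 to 0.475), and results that rest on them are given without them too.

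Promoter sequence is shown for Elf3 and Ets2, which fell, and for Etv5, which was lower by its dimmer probe set only, a choice made after seeing the data. It was taken from the RefSeq promoter table (build GRCm38.p6, 250 bases before to 50 after the start of transcription), so that the ETS core can be seen in them. Of the 10 members 8 had 12 entries. Capitals mark GGAA or its reverse complement TTCC.
Elf3, chr1:135258423-135258722, minus strand: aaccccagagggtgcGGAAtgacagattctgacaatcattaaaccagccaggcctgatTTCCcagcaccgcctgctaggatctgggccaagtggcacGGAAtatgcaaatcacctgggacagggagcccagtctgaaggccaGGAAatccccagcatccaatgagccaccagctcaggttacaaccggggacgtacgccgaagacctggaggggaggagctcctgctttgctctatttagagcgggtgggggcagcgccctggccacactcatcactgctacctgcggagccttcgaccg
Ets2, chr16:95702157-95702456, plus strand: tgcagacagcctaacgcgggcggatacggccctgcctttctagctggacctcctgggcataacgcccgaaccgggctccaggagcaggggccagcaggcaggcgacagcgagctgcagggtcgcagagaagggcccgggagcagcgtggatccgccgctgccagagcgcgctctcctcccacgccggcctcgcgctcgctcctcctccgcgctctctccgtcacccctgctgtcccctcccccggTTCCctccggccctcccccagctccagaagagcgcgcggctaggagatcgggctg
Etv5, upstream start, chr16:22439521-22439820, minus strand: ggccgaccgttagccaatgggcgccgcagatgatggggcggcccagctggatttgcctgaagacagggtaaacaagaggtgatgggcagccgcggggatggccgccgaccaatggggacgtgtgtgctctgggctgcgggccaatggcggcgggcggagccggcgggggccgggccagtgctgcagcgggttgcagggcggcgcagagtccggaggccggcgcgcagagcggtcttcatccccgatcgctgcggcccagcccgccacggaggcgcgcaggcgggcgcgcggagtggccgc
Etv5, downstream start, chr16:22438319-22438618, minus strand: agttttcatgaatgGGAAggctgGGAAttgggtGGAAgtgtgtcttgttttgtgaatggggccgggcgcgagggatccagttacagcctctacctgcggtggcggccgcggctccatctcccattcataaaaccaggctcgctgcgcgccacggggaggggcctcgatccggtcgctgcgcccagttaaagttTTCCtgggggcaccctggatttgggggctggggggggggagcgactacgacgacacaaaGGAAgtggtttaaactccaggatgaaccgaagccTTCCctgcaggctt
The core occurred 4 times in the Elf3 window, 1 time in that of Ets2, and 0 and 6 times in those of Etv5, beside a median of 3 over 32544 promoter windows of 300 bases, of which 96% held at least 1. The longer ETS sequence CCGGAAG, searched on both strands and containing the core, was in none of the 12 member windows and in 8.91% of all. The E-box CACGTG, which Myc binds, was in the windows of Elk1 and Elf4 (upstream start) and in 7.17% of all. The STAT sequence TTCNNNGAA was in 1 window, that of the downstream start of Elf2, and in 8.33% of all. A match of letters is a description only.

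Elf3, Ets2 and Etv4 fell by 2- to 4-fold, and no other member passed the test by the probe set that stood for its gene. Of the 10 genes, 3 were lower in lox/lox cells in limma (adjusted p under 0.05 over all genes tested), 0 were higher and 7 did not pass. Over all genes 3.61% were lower and 2.55% higher, 6.16% in all. At an unadjusted p under 0.05 there were 1 higher and 4 lower members. Many other genes lay under this threshold too. Ordered by p in either direction, Elk1, which was under it, ranked 3245 of 19938 genes. Etv5, just above it, ranked 3666, so the number of all genes under it lay between these ranks. Counts at this threshold in the lists below are to be read beside that number, and not beside the adjusted percentages. The median log2 change of the 10 was -0.10, beside -0.008 over the 19938. In 8 members the genotypes did not overlap on any array, 5 lower and 3 higher, where 22.8% of all genes were so separated (12.7% lower and 10.1% higher). A log2 fall of at least 1 with an adjusted p under 0.05 was seen in 0.311% of genes and in all 3 lower members, Elf3, Ets2 and Etv4.

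**Figure D1:**
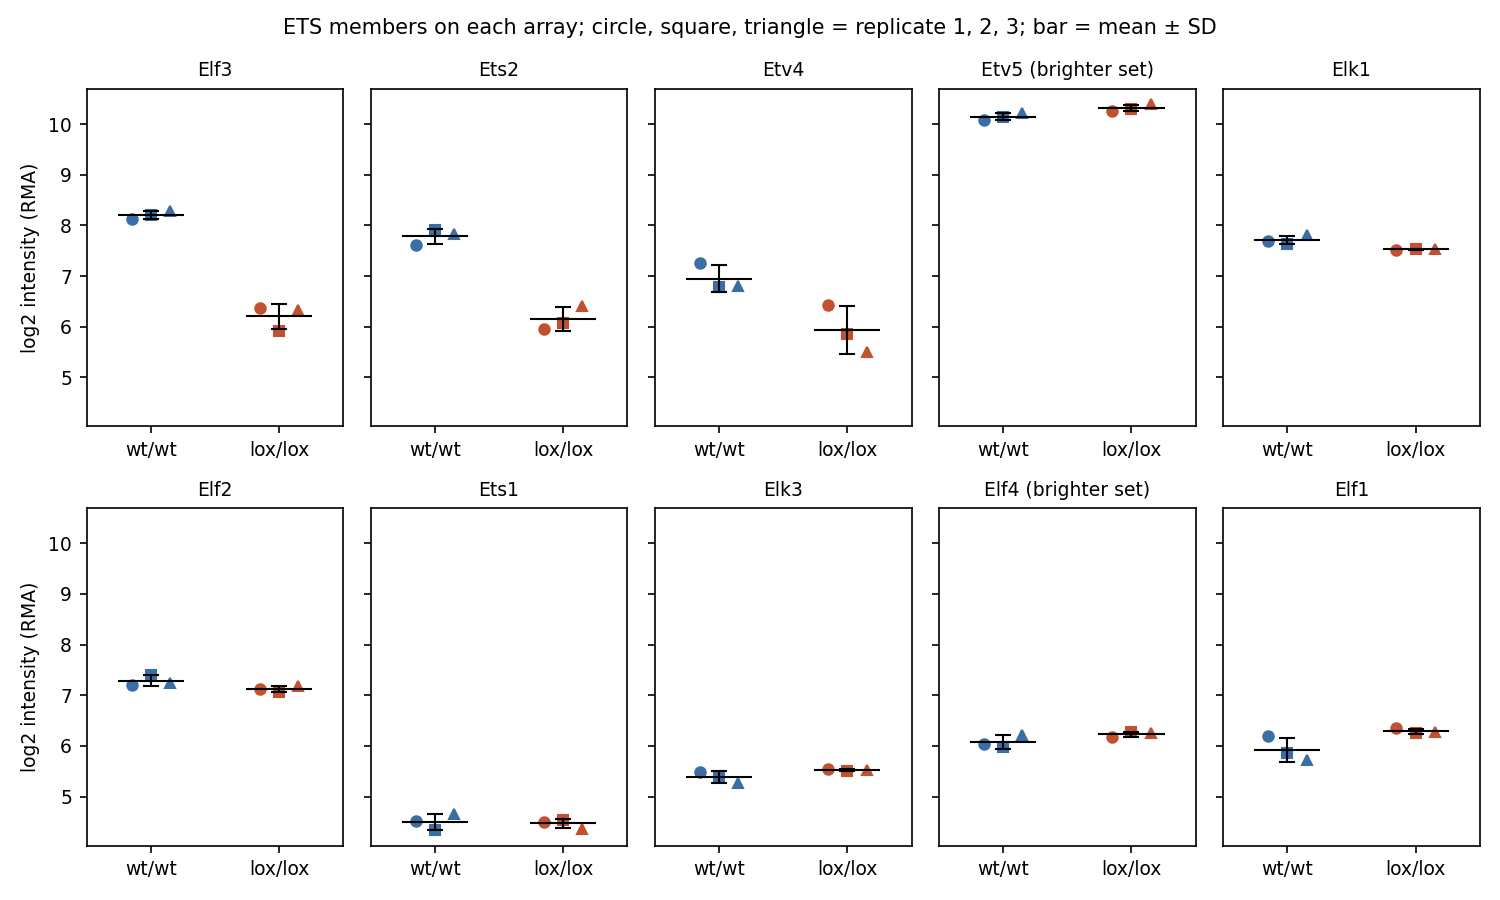
Log2 intensity (RMA) of the 10 ETS genes on each of the 6 arrays, with blue for wt/wt, red for lox/lox, marker shape for the replicate number and bars for mean ± SD (n = 3); Etv5 and Elf4 are shown by their brighter probe set. Elf3, Ets2 and Etv4 drop from wt/wt to lox/lox without overlap, and the other members differ by at most 0.37 between the genotype means.

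Elf3, the epithelial member, changed most. Its wt/wt arrays read 8.12, 8.21 and 8.28, and its lox/lox arrays 6.36, 5.91 and 6.33. The wt/wt arrays lay close together, replicate 2 of lox/lox was the lowest, and the genotypes were well apart. The log2 change was -2.0 (SE 0.12, 95% interval -2.27 to -1.74, adjusted p = 1.84e-05 in limma), a 4.01-fold lower level. It ranked 8 among the falls of all 19938 genes. Without any 1 array the adjusted p was at most 0.000398.

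Ets2 fell nearly as far. It read 7.62, 7.91 and 7.83 in wt/wt cells and 5.96, 6.07 and 6.41 in lox/lox cells. The highest lox/lox array, replicate 3, was still below every wt/wt array by more than 1. The log2 change was -1.64 (SE 0.12, 95% interval -1.91 to -1.37, adjusted p = 7.87e-05 in limma), or 3.11-fold lower, rank 17 among the falls. The adjusted p was at most 0.00139 without any 1 array.
Its relative Ets1, the founder of the family, was dim. It read 4.52, 4.33 and 4.65 in wt/wt and 4.51, 4.54 and 4.36 in lox/lox cells, below the array medians. The arrays of the genotypes overlapped, and the log2 change was -0.03 (95% interval -0.25 to 0.19, adjusted p = 0.926 in limma).

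The PEA3 pair gave the least uniform values. Etv4 read 7.26, 6.79 and 6.81 in wt/wt and 6.44, 5.85 and 5.50 in lox/lox cells. The genotypes did not overlap, but the lox/lox arrays spread over nearly 1 log2 unit, with replicate 1 the highest and replicate 3 the lowest. The log2 change was -1.02 (SE 0.21, 95% interval -1.48 to -0.56, adjusted p = 0.017 in limma), a 2.03-fold lower level. This call was lost without lox/lox replicate 2 or 3 (adjusted p = 0.0831 and 0.0558), without both arrays that stood apart (0.0794), and when all probe sets were tested (0.104).

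Etv5 was measured by probe sets that disagreed. The brighter one, which stood for the gene because its mean was the highest, read 10.08, 10.15 and 10.21 in wt/wt and 10.26, 10.30 and 10.39 in lox/lox cells. These arrays did not overlap, and the log2 change was small, 0.17 (95% interval -0.003 to 0.35, adjusted p = 0.288 in limma). The dimmer one read 7.84, 7.81 and 7.66 in wt/wt and 6.53, 6.33 and 5.80 in lox/lox cells. Every lox/lox array was thus lower by more than 1, with replicate 1 the highest and replicate 3 the lowest, as in Etv4. The log2 change of the dimmer set was -1.55 (SE 0.18, adjusted p = 0.0121 in limma over all 35556 probe sets, of which 2.27% passed and 1.38% were lower), a 2.93-fold lower signal. With this set in place of the brighter one among the genes, a choice made after seeing the data, its adjusted p was 0.000375, at most 0.00325 without any 1 array and 0.00284 without both arrays that stood apart. The number of lower members was then 4.

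The place of these probe sets in the array's numbering also differed. Etv5 lies on chromosome 16. Of the 10 named probe sets with the nearest identifiers, all 10 belonged to genes of chromosome 16 for the dimmer set, and 0 for the brighter set, whose neighbours came most often from chromosome 10. Of 21471 probe sets that could be placed in this way, 3% had no neighbour from their own gene's chromosome. The annotation gave both sets the same gene symbol, and which locus the brighter set reads was not tested. Per array, the dimmer minus the brighter value was -2.23, -2.34 and -2.55 in wt/wt and -3.74, -3.96 and -4.58 in lox/lox cells. The mean of these differences was lower by 1.72 in lox/lox cells, which is a description of a discord already seen.

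**Figure D2:**
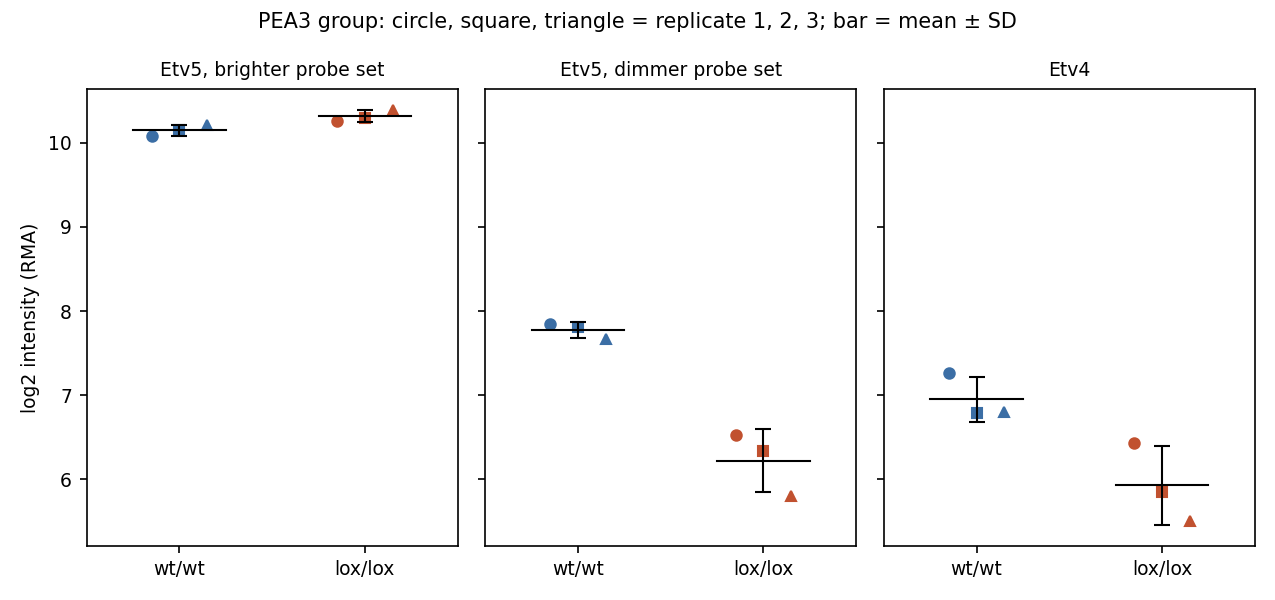
Log2 intensity (RMA) of the brighter and the dimmer Etv5 probe sets and of Etv4 on each array, with blue for wt/wt, red for lox/lox, marker shape for the replicate number and bars for mean ± SD (n = 3). The brighter Etv5 set stays near 10.1 to 10.4, while the dimmer set and Etv4 fall in lox/lox cells and are lowest in lox/lox replicate 3.

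The ternary complex factors did not pass. Elk1, an activator, read 7.69, 7.64 and 7.80 in wt/wt and 7.52, 7.53 and 7.54 in lox/lox cells. The genotypes were separate but close, with a log2 change of -0.18 (95% interval -0.35 to -0.01, adjusted p = 0.244 in limma). Elk3, a repressor until ERK phosphorylates it, read 5.49, 5.40 and 5.26 against 5.54, 5.50 and 5.52. All lox/lox arrays lay just above the wt/wt arrays, and the log2 change was 0.14 (95% interval -0.05 to 0.32, adjusted p = 0.46 in limma).

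None of Elf1, Elf2 and Elf4 passed the test, and their log2 changes were below 0.4 in size. Elf1 read 6.19, 5.85 and 5.72 in wt/wt and 6.35, 6.25 and 6.28 in lox/lox cells. The lox/lox arrays were all higher, and wt/wt replicate 1 came closest to them. The log2 change of 0.37 (95% interval 0.12 to 0.63) was the largest positive one among the members by the probe sets that stood for the genes, and did not pass (adjusted p = 0.0947 in limma). It passed without wt/wt replicate 1 (adjusted p = 0.00948) and with array weights (0.0365), and was as high as 0.306 without wt/wt replicate 3. Elf2 read 7.20, 7.40 and 7.25 against 7.12, 7.06 and 7.18 in lox/lox cells, separate by a narrow gap (log2 change -0.17, 95% interval -0.35 to 0.02, adjusted p = 0.339 in limma). Elf4 read 6.03, 5.98 and 6.22 against 6.17, 6.27 and 6.25 by its brighter set, and the genotypes overlapped (log2 change 0.15, 95% interval -0.04 to 0.35, adjusted p = 0.418 in limma). Its dimmer set, at 4.69 ± 0.07 and 4.67 ± 0.26 and so below the array medians, had a log2 change of -0.02.

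The rest of the family was measured in 16 of 17 genes, and none of these was higher either. In limma 3 were lower and 13 did not pass, with 1 higher and 5 lower at an unadjusted p under 0.05 (median log2 change -0.10). Spic, a relative of PU.1 known from splenic macrophages, read 7.35, 7.72 and 7.34 in wt/wt and 6.41, 6.27 and 6.71 in lox/lox cells. Its log2 change was -1.01 (SE 0.13, adjusted p = 0.00156 in limma), and the genotypes were apart by more than 0.6. Erf, a repressor that ERK removes from the nucleus, read 6.41, 6.71 and 6.79 against 5.93, 5.97 and 6.06 (log2 change -0.65, SE 0.10, adjusted p = 0.00464 in limma). Etv6, a repressor also called Tel, read 6.36, 6.62 and 6.75 against 6.15, 5.99 and 6.05 (log2 change -0.51, SE 0.11, adjusted p = 0.018 in limma). When each array was left out in turn, Spic and Erf kept their calls in all 6 fits and Etv6 in 2, with its highest adjusted p, 0.0905, in the fit lacking lox/lox replicate 2.

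Other members of the rest of the family did not pass in limma. Gabpa, which drives mitochondrial and housekeeping genes, had a log2 change of -0.29 (adjusted p = 0.0969). Elk4, the remaining ternary complex factor, had one of 0.32 (adjusted p = 0.101), and Ehf, a relative of Elf3, one of -0.29 at a level below the array median (adjusted p = 0.158). Etv1, the third member of the PEA3 group, had 0.08 by its brighter set and -0.06 by its dimmer one (adjusted p = 0.881 and 0.902 over all probe sets), and the brighter one also had 0 of 10 neighbouring identifiers from its own chromosome. Among all 26 measured ETS genes, 6 were thus lower and 0 higher, that is 23.1% lower, where 3.61% of all genes were lower and 2.55% higher.

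**Figure D3:**
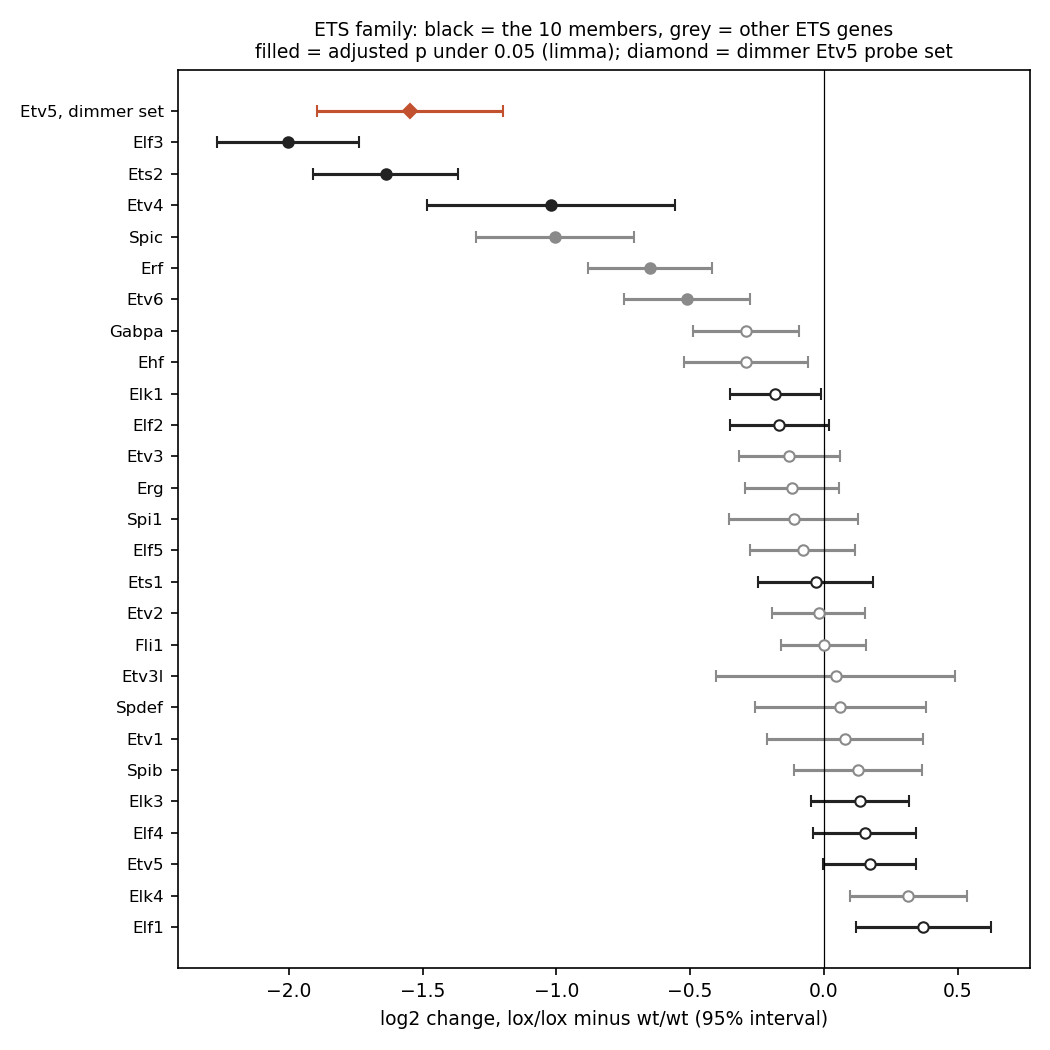
Log2 change (lox/lox minus wt/wt) with its 95% interval for the 26 measured ETS genes, ordered by size, in black for the 10 members and grey for the rest; filled points have an adjusted p under 0.05 in limma, and the red diamond is the dimmer Etv5 probe set. All 6 filled circles lie left of 0, from -2.0 for Elf3 to -0.51 for Etv6, and Elf1 has the highest value, 0.37.

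Signals that feed ETS factors begin with FGF. Of 14 measured FGF ligands, receptors and adaptors 1 was higher and 1 lower (median log2 change 0.04), where 2.55% of all genes were higher and 3.61% lower. Fgfr2, the receptor that primitive endoderm and trophoblast use, read 5.59, 5.50 and 5.63 in wt/wt and 6.19, 6.31 and 6.27 in lox/lox cells. This was a 1.60-fold rise without overlap (log2 change 0.68, SE 0.08, adjusted p = 0.000657 in limma). Fgf4, the main ligand that ES cells secrete, was 1.49-fold lower (log2 change -0.57, adjusted p = 0.00253). Both genes passed in each fit without 1 array. Of 15 measured Ras-ERK kinases and adaptors 1 was lower and 0 higher in limma, with 0 higher and 4 lower at an unadjusted p under 0.05 (median log2 change -0.05). That gene was Map2k1, which encodes MEK1 (log2 change -0.33, adjusted p = 0.0456), and it passed in 1 of 6 fits that left out an array. Sos2, an exchange factor for Ras, had the next smallest p (log2 change -0.27, adjusted p = 0.0708).

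Feedback and immediate early genes downstream of ERK and ETS factors did not move as one. Of 22 measured, 3 were higher, 1 lower and 18 did not pass (median log2 change -0.06), beside 2.55% higher and 3.61% lower over all genes. Spry2, a feedback inhibitor of receptor signalling, read 8.47, 8.41 and 8.59 in wt/wt and 9.16, 8.92 and 8.91 in lox/lox cells. All lox/lox arrays were higher, by a log2 change of 0.51 (SE 0.09, adjusted p = 0.00948 in limma). The ERK phosphatase gene Dusp4 and Ier3, an early response gene, had log2 changes of 0.51 and 0.61 (adjusted p = 0.0238 and 0.036), and passed in 2 and 3 of the 6 fits without 1 array. Both lay near the array median in wt/wt cells (4.92 and 4.86), where background limits the values. The number of higher genes was 1 without wt/wt replicate 2, lox/lox replicate 2 or lox/lox replicate 3, and 0 without both arrays that stood apart or when all probe sets were tested, where Spry2 lost its call too. Ier2, the lower gene, read 8.39, 8.47 and 8.46 against 8.0, 8.02 and 8.04 (log2 change -0.42, SE 0.07, adjusted p = 0.00709) and kept its call whichever array was left out. Dusp6, Egr1 and Fos, widely used readouts of ERK, had log2 changes of -0.17, 0.19 and -0.12 and did not pass (adjusted p of 0.406, 0.44 and 0.568).

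Among 17 measured cofactors and degraders of ETS factors 1 was lower and 0 higher in limma, with 1 higher and 3 lower at an unadjusted p under 0.05. Over all genes 3.61% were lower and 2.55% higher in limma. Id2, a helix-loop-helix inhibitor of the Id family, whose members can bind ternary complex factors, read 6.61, 6.95 and 7.05 in wt/wt and 5.55, 5.48 and 5.68 in lox/lox cells. Its log2 change was -1.30 (SE 0.12, adjusted p = 0.000203), with no overlap. Its relatives Id1 and Id3 had -0.12 and 0.03 (adjusted p = 0.502 and 0.946). Srf, the partner of the ternary complex factors, had -0.20 (95% interval -0.37 to -0.03, adjusted p = 0.183), and Cop1, a ubiquitin ligase of Etv4 and Etv5, 0.07 (adjusted p = 0.792).

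Epithelial genes, known beside Elf3 in other tissues, went both ways. Of 25 measured, 7 were higher, 4 lower and 14 did not pass (median log2 change 0.08), where 2.55% of all genes were higher and 3.61% lower. Higher were the tight junction genes Cldn6 (1.66) and Cldn7 (0.39), the protease inhibitor gene Spint2 (1.13), the adhesion gene Epcam (0.79), the splicing factor gene Esrp1 (0.78), the keratin gene Krt19 (0.65) and the grainyhead gene Grhl2 (0.40), with log2 changes in brackets and adjusted p between 0.000264 and 0.0424. Lower were Grhl3 (-0.95), Klf5 (-0.68), the membrane protease gene St14 (-0.62) and Spint1, an inhibitor of that protease (-0.45), all with an adjusted p of at most 0.00786. Of the higher genes, Esrp1, Cldn7 and Grhl2 averaged below the array median in wt/wt cells (4.21, 4.66 and 4.62). They were only just above it in lox/lox cells (4.99, 5.06 and 5.02), so background limits their values. All 4 lower genes and 4 of the 7 higher ones passed in each fit without 1 array. Krt19, Cldn7 and Grhl2 did not. The number of higher genes was 4 without wt/wt replicate 3, with all probe sets tested or without both arrays that stood apart. It was also 4 with dim genes removed, where Esrp1, Cldn7 and Grhl2 were taken out before the test and Krt19 was kept. Krt8 and Krt18, the simple keratins, and Cdh1, which encodes E-cadherin, had log2 changes of -0.07, 0.04 and 0.19 (adjusted p of 0.866, 0.883 and 0.296).

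**Figure D4:**
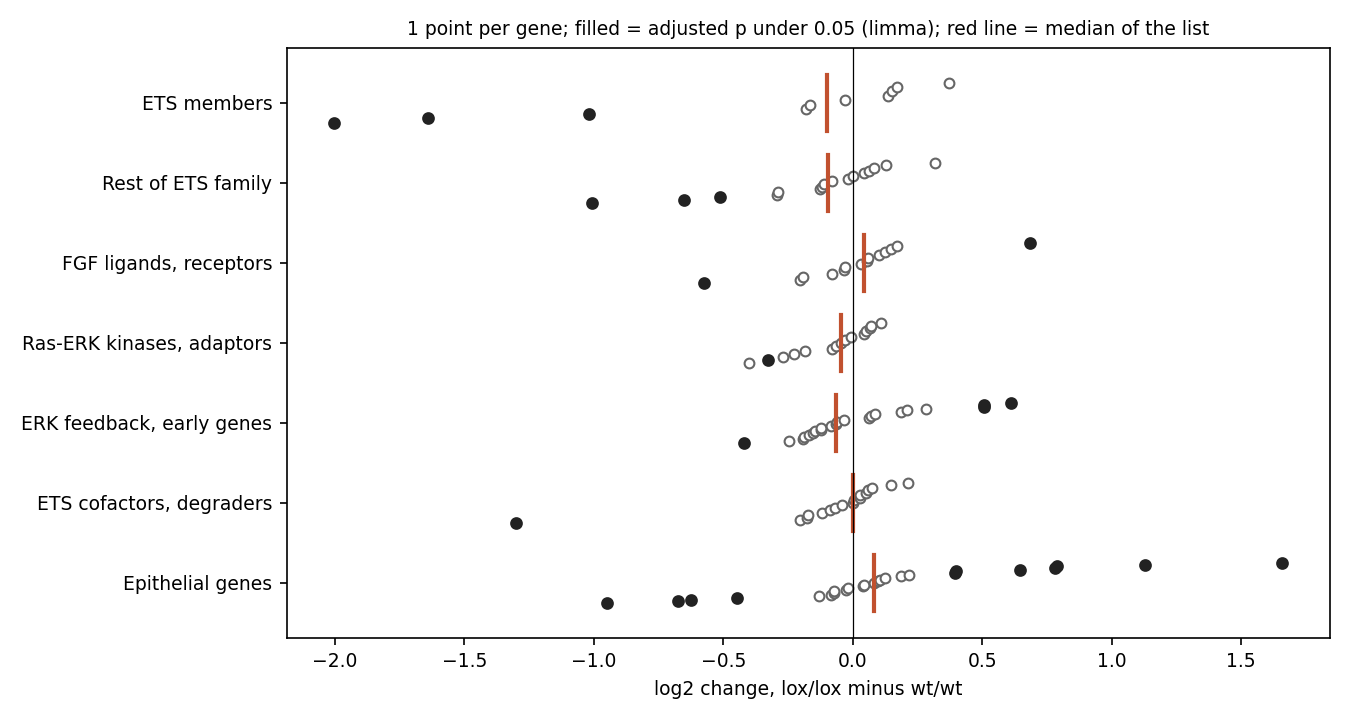
Log2 change (lox/lox minus wt/wt) of every measured gene in 7 groups, 1 point per gene, filled where the adjusted p in limma is under 0.05, with a line at each group's median. Filled points of both ETS groups lie left of 0, while those of the epithelial group lie on both sides, 7 right and 4 left.

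Chromosomal neighbours were called about as often as all genes, and every call was a lower one. The 40 measured genes nearest to the 10 members, 2 on each side, had a median log2 change of -0.06. In limma 3 were lower and 0 higher (7.5% called), beside 3.61% lower, 2.55% higher and 6.16% called of all genes. At an unadjusted p under 0.05, 1 was higher (Utp14a), and Noct, Zfp182 and Brwd1 were lower beside the 3 called. Rnpep, an aminopeptidase gene next to Elf3, was 1.58-fold lower (log2 change -0.66, adjusted p = 0.0036 in limma), while Gpr37l1 on the other side had -0.001. Cfp, next to Elk1, and Rdm1, the second gene from Etv4, had log2 changes of -0.40 and -0.45 (adjusted p = 0.0137 and 0.0188) and passed in 4 and 3 of the 6 fits without 1 array. Erg, the ETS gene next to Ets2, had -0.12 (adjusted p = 0.506), and Fli1, the ETS gene next to Ets1, -0.001 (adjusted p = 0.997), both near or below the array median. The nearest neighbours of Etv5, Tra2b and Crygs, had -0.04 and 0.03.

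The 5 genes whose values over the 6 arrays lay closest to those of Elf3, each centred on its mean, were Sik1, Prdm14, Abca1, Calcoco2 and Meis2, with a root mean square difference of 0.184 to 0.222 on the log2 scale. Their log2 changes ran from -2.07 to -1.76. For Elf1, whose positive change was the largest, they were Ccdc113, Mcam, Fbln1, Gm10654 and Mrc1 (0.0574 to 0.0708), with log2 changes of 0.26 to 0.48, and 2 of these 5, Mcam and Fbln1, passed the test. Such likeness follows mostly from the size of the genotype difference and has no test.

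Markers of other cells in which ETS factors are prominent stood as follows. Of 18 fibroblast and 12 blood markers 0 passed in limma, with 3 and 0 at an unadjusted p under 0.05. The 3 fibroblast ones, Dcn, Twist1 and Vim, were all higher. Of 11 trophoblast markers 1 was higher (Ascl2) and 2 lower (Gata3 and Gata2), of 12 primitive endoderm markers 1 was lower (Lama1), and of 12 endothelial markers 1 was higher (Cdh5, below the array median in both genotypes). Over all genes 2.55% were higher and 3.61% lower. Gata3 passed in 3 of the 6 fits without 1 array, Ascl2, Gata2 and Cdh5 in 2 each, and Lama1 in 1. At an unadjusted p under 0.05 in limma, 1 trophoblast marker was higher and 3 lower, and the counts for endothelium were the same. For primitive endoderm 1 was higher and 1 lower. In wt/wt cells 6 of the 11 trophoblast, 5 of the 12 primitive endoderm, 6 of the 12 endothelial, 5 of the 12 blood and 10 of the 18 fibroblast markers lay above the array median, among them Cdx2 (6.27), Lama1 (7.43), Laptm5 (9.68) and Col1a1 (6.05). Other defining markers lay below it: Elf5 and Tpbpa of trophoblast (3.80 and 3.10 in wt/wt cells), Ptprc and Runx1 of blood (3.96 and 4.39), Sox17 and Gata6 of primitive endoderm (4.03 and 4.50), and Dcn and Lum of fibroblasts (3.45 and 3.0). The summed linear signal of the trophoblast list was 397 to 406 in wt/wt and 364 to 450 in lox/lox cells, that of primitive endoderm 452 to 534 and 450 to 472, that of endothelium 592 to 639 and 577 to 602, and that of blood 1066 to 1120 and 1015 to 1130. These ranges overlap. The fibroblast sum was 4698 to 5072 in wt/wt and 5342 to 5818 in lox/lox cells, carried mainly by Vim and Fn1 (11.56 and 10.37 in wt/wt cells), and the sum of 12 ES cell markers was 27282 to 28901 and 23009 to 25074. Of the ES cell markers 4 were lower (Klf4, Sox2, Nanog and Esrrb) and 1 higher (Utf1). At an unadjusted p under 0.05 in limma, 8 of the 12 were lower and 1 higher, with a median log2 change of -0.19 over the list. Klf4, Sox2 and Nanog passed in all 6 fits without 1 array, Esrrb in 1 and Utf1 in 0. The fibroblast and ES cell sums moved with the genotype, and their part in the ETS results was not tested.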

How the data were processed

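Total RNA of 6 cultures, 3 per genotype, was measured on 1 array each. For 35556 probe sets the authors deposited log2 values. The submitters' processing notes name RMA and affy, without versions, options or build. RMA assumes like distributions on all arrays, so a global change of RNA per cell cannot be seen, and background compresses changes of dim genes.

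Exactly 1 symbol was given for 21789 probe sets, and each of 19938 genes was represented by its brightest one. The test of lox/lox minus wt/wt used lmFit and eBayes of limma 3.58.1 (R 4.3.3) on all 6 arrays, with Benjamini-Hochberg adjustment over all genes and calls at 0.05. The p-values measure the spread between 3 cultures per genotype, and no set test was run. The fit was also tested on simulated arrays of 19938 genes, with independent normal noise per gene and no shared axis of spread. Log2 changes of 0.5, 1 and 2 were added to 67, 67 and 66 genes. The fit recovered 47.8%, 97% and 98.5% of them, and 2.41% of calls were false. The real arrays had more calls and a shared axis, so their rates can differ.

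Members and lists were chosen with earlier results of these data known. Named were Rad21, all members, called genes of each list (a list with few calls also by its smallest p), called neighbours, and the 5 genes closest to the members with the largest positive and negative change. Further genes (such as Dusp6, Egr1, Fos, Id1, Id3, Cop1, Krt8, Krt18, Cdh1, Gabpa, Elk4 and Ehf) were named after their values were seen. Of 3 older symbols in the lists, each was matched by synonym. Alternatives were quantile normalization, median centring, cyclic loess, a filter on dim genes, testing every probe set, a robust eBayes with trend, weights per array, a replicate block and each array left out. Proteins were not used here.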

Additional observations from a re-analysis of the deposited data

How the results depend on the processing

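The direction of 7 of the 10 members held under every alternative run, with Ets1, Etv5 and Elf4 the exceptions. Without 1 array, the genes called ranged from 626 to 1132 (higher 269 to 484, lower 340 to 686), the higher members from 0 to 1, and the log2 changes of Elf1 from 0.27 to 0.51, of Ets1 from -0.11 to 0.04 (0.043 in the fit lacking wt/wt replicate 3, 0.023 in that lacking lox/lox replicate 3), and of Etv4 from -1.27 to -0.81. Over all probe sets 808 were called, 319 of them higher, and Etv4, at -1.02, lost its call. With array weights 1 member was higher, Elf1, at 0.43, and 1717 genes were called. An alternative added with the data in view left out both arrays that stood apart and called 697 genes (267 higher, 430 lower), and Etv4, at -0.89, lost its call. With the dimmer probe sets of Etv5 and Elf4, also chosen afterwards, their log2 changes turned to -1.55 and -0.021. For 33 named genes outside the members, 524 single results under alternatives held 425 calls and lost 99, and 0 turned.

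Same-numbered arrays deviated from their group means with correlations of 0.101, -0.228 and -0.103, and differently numbered ones with -0.251 to 0.322. The highest was between wt/wt replicate 2 and lox/lox replicate 3, the arrays that stood apart. With 3 arrays per genotype, such correlations cannot show whether same-numbered cultures were handled together. With the replicate block 1086 genes were called, 3 members were lower and 0 higher, and no member's call changed. The 3 arrays per genotype limit precision, and values near the array median, such as Ets1, are limited by background. The causes of calls lost without 1 array were not tested.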

Other observations

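The discord between the Etv5 probe sets was looked for in other genes, after it had been seen. In 252 genes the brightest probe set had no identifier neighbour from the gene's own chromosome while another set, no brighter, had at least 50% of its neighbours there. The log2 changes of these sets differed by a median of 0.0331, and by 1.72 in Etv5, the largest gap of the 252. The next was Bhmt, a methyltransferase gene, with 0.856. Over all probe sets, in 2 of the 252 genes the other set passed in limma and the brightest did not, Etv5 and Eif2s2, a translation initiation factor gene. In 2 it was the reverse, Bhmt and Hacd2. In Eif2s2 the sets had log2 changes of -0.46 and -0.51 (adjusted p = 0.166 and 0.0318), whereas in Etv5 they were 0.17 and -1.55. Ak4, an adenylate kinase gene with the same layout, had -2.38 and -1.97.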
